A study of Mus musculus with 8 samples.

Results

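The genes described are 9 of the Notch pathway, namely the receptors Notch1, Notch2 and Notch3, the ligands Jag1 and Jag2, the DNA-binding partner Rbpj and the target genes Hes1, Hey1 and Heyl. They were chosen by name, with earlier results of these data known. Each was read from the probe sets that name it alone, the brightest over the arrays compared being the main one. Of the 9 genes 8 were measured, by 14 probe sets, among 17097 genes in all; no value is given for Jag2, which no such probe set names. The cells were dermal fibroblasts of female mice that were 2 months old when they started on a high fat diet (HFD) or a control diet, called the normal diet (ND), and that ate it for 6 months before all were killed on one day. Neither a strain nor a genotype was given in the sources used here. Cells from collagenase-digested dermis were sorted for Pdgfra and CD34 and against CD45, CD117, CD24, CD31 and EpCam, 10000 per sample, and their cDNA was amplified over 20 cycles before hybridisation to Affymetrix arrays. There were 4 ND and 4 HFD arrays, and ND 4, left out by the submitters' quality control for a reason not stated, is given apart, so that 3 ND arrays were compared with 4 HFD arrays. All values are log2 expression, and a level of one gene cannot be set against that of another on these arrays.

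Notch receptors sit in the membrane of the signal-receiving cell and are engaged by Jagged or Delta-like ligands on a neighbouring cell. The bound receptor is cut first by the protease Adam10 and then by gamma-secretase, and its freed intracellular domain enters the nucleus, where it joins Rbpj and Mastermind-like coactivators and switches on repressor genes of the Hes and Hey families. In skin the pathway is best known for its part in keratinocyte differentiation and hair follicle maintenance, and in vessels Notch3 and its targets are typical of mural cells.

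In HFD fibroblasts the target genes Hey1 and Heyl rose, by 1.74-fold and 1.52-fold on the main probe set of each. The 2 other probe sets of Heyl did not show the rise, with log2 changes of −0.027 and 0.059. Hes1 lay at the same mean level in both diets. No receptor or ligand passed the test, which was limma with Benjamini-Hochberg adjustment over all genes at 0.05. Jag1 nevertheless lay higher in all 4 HFD arrays than in the 3 ND arrays, and Notch2 lay lower in all 4. Of the 8 measured genes 2 were called, both higher, or 25%, where 914 of all 17097 genes were called, or 5.35% (2.62% higher and 2.73% lower). The arrays of the diets did not overlap in 5 of the 8, with 4 higher and 1 lower in HFD, where 17.9% of all genes did not overlap. The median change of the 8 genes was 0.22 against 0.02 for all genes, with 6 of the 8 positive.

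**Figure D1:**
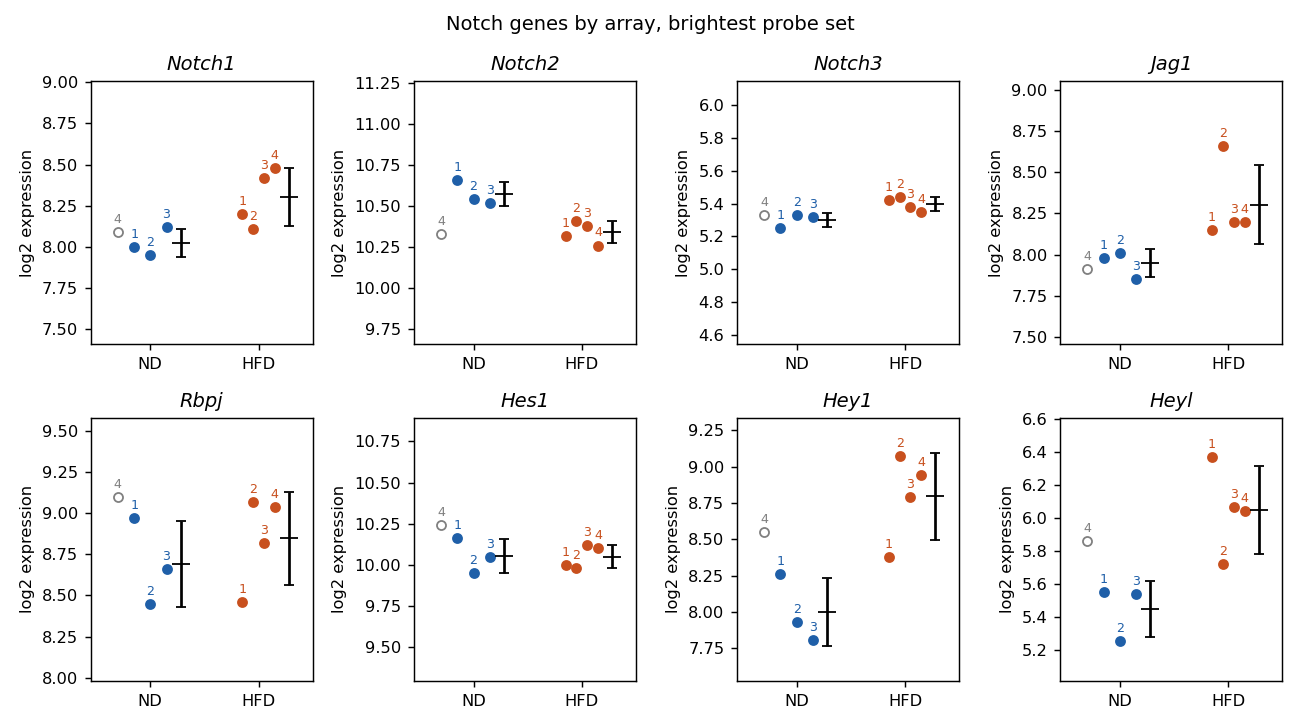
Log2 expression (y axis, own range per panel) of the brightest probe set of 8 Notch genes in each array, numbered by specimen, with ND in blue, HFD in orange and the excluded ND 4 as an open grey circle; bars give the mean and SD of ND 1 to 3 and of HFD 1 to 4. The diets do not overlap for Notch2, Notch3, Jag1, Hey1 and Heyl, and for Hes1 both means are 10.05.

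Hey1 encodes a basic helix-loop-helix repressor that is switched on by Notch and, in several cell types, by BMP signals. Its single probe set read 8.26, 7.93 and 7.81 in ND 1, 2 and 3 and 8.38, 9.07, 8.79 and 8.94 in HFD 1, 2, 3 and 4. All HFD arrays were above all ND arrays, but HFD 1 stood only 0.12 above ND 1. The ND mean was 8.0 ± 0.23 (SD, n = 3) and the HFD mean 8.8 ± 0.3 (SD, n = 4), which differ by 0.8 (SE 0.17, limma adjusted p = 0.0314). ND 4, at 8.55, lay within the HFD range.

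Heyl, a relative of Hey1 that is typical of mural cells and muscle, was measured by 3 probe sets, of which the brightest read 5.55, 5.25 and 5.54 in ND 1 to 3 and 6.37, 5.72, 6.07 and 6.04 in HFD 1 to 4. Its HFD arrays were all above its ND arrays, with HFD 1 the highest and HFD 2 the lowest of the 4, whereas for Hey1 HFD 2 was the highest and HFD 1 the lowest. The means were 5.45 ± 0.17 (SD, n = 3) and 6.05 ± 0.27 (SD, n = 4), a log2 change of 0.6 (SE 0.14, limma adjusted p = 0.0374). Both means are below 6.18, the median probe set of the arrays. The 2 other probe sets of Heyl, both dimmer, differed by −0.027 (95% confidence interval −0.17 to 0.11) and 0.059 (−0.11 to 0.23), so the rise was seen in 1 of its 3 probe sets. With the mean of the 3 probe sets as the gene's value, the change of Heyl was 0.21 (SE 0.078, limma adjusted p = 0.167).

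Hes1, the Notch target most often used as a readout of the pathway, was bright and steady. It read 10.16, 9.95 and 10.05 in ND 1 to 3 and 10, 9.98, 10.12 and 10.1 in HFD 1 to 4, and the diets overlapped fully. The change was −0.0033 (95% confidence interval −0.19 to 0.18), so that these arrays bound a shift of Hes1 to within about the spread of its ND arrays, which was 0.21 from lowest to highest.

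The calls of Hey1 and Heyl hung on single arrays, as did the count of calls over all genes. Hey1 kept an adjusted p under the threshold without ND 1 (0.0322) or HFD 1 (0.0159), and not without ND 2, ND 3, HFD 2, HFD 3 or HFD 4, where its change was 0.7 to 0.8 with adjusted p of 0.0641 to 0.13. Heyl kept its call without HFD 1 (0.0376) or HFD 2 (0.041), and not without ND 1, ND 2, ND 3, HFD 3 or HFD 4 (change 0.5 to 0.65, adjusted p 0.0522 to 0.116). Without ND 3, HFD 3 or HFD 4 the count over all genes fell from 914 to 11, 6 and 9. There the unadjusted p in limma was 0.0041, 0.00211 and 0.00237 for Hey1. For Heyl it was 0.00267, 0.0035 and 0.00291. With ND 4 included the changes of Hey1 and Heyl were 0.66 (limma adjusted p = 0.169) and 0.5 (limma adjusted p = 0.173).

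Measures of other cells and of RNA quality also differed between the diets on average. The mean of 13 measured keratinocyte markers was 7.2, 6.53 and 6.91 in ND 1 to 3, 7.59 in ND 4, and 6.79, 8.26, 7.58 and 7.49 in HFD 1 to 4, with all 13 higher in HFD on average and 0 called (limma, with adjusted p of 0.143 to 0.812). HFD 2 was highest both in this mean and in Hey1 and Jag1, and HFD 1 was the lowest HFD array in all 3. Heyl went the other way among the HFD arrays, highest in HFD 1 (6.37) and lowest in HFD 2 (5.72). In bulk samples such as these, fewer cells of a type and less RNA per cell cannot be told apart. The difference between 3′ and 5′ control probe sets of Gapdh and Actb, a measure of RNA quality, averaged −0.27 ± 0.08 (SD, n = 3) over the ND arrays and −0.41 ± 0.03 (SD, n = 4) over the HFD arrays, without overlap. An exact permutation test, two-sided, gave p = 0.0286, which is the lowest p open to 35 splits. ND 4, at −0.37, lay outside ND 1 to 3 (−0.34 to −0.18) and next to the HFD range (−0.44 to −0.38). With the keratinocyte mean as a covariate in limma, Hey1 changed by 0.5 (SE 0.14, adjusted p = 0.13) and Heyl by 0.79 (SE 0.14, adjusted p = 0.0776). With the 3′ minus 5′ difference as the covariate the changes were 0.48 (SE 0.29) for Hey1 and 0.91 (SE 0.23) for Heyl. Their unadjusted p in limma was 0.132 and 0.00308. Both had an adjusted p of 0.999 in a fit where 0 of all genes passed. Because the 3′ minus 5′ difference did not overlap between the diets, its fit cannot tell this measure apart from diet. Beyond the covariate fits, the part of either measure in the result was not tested.

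**Figure D2:**
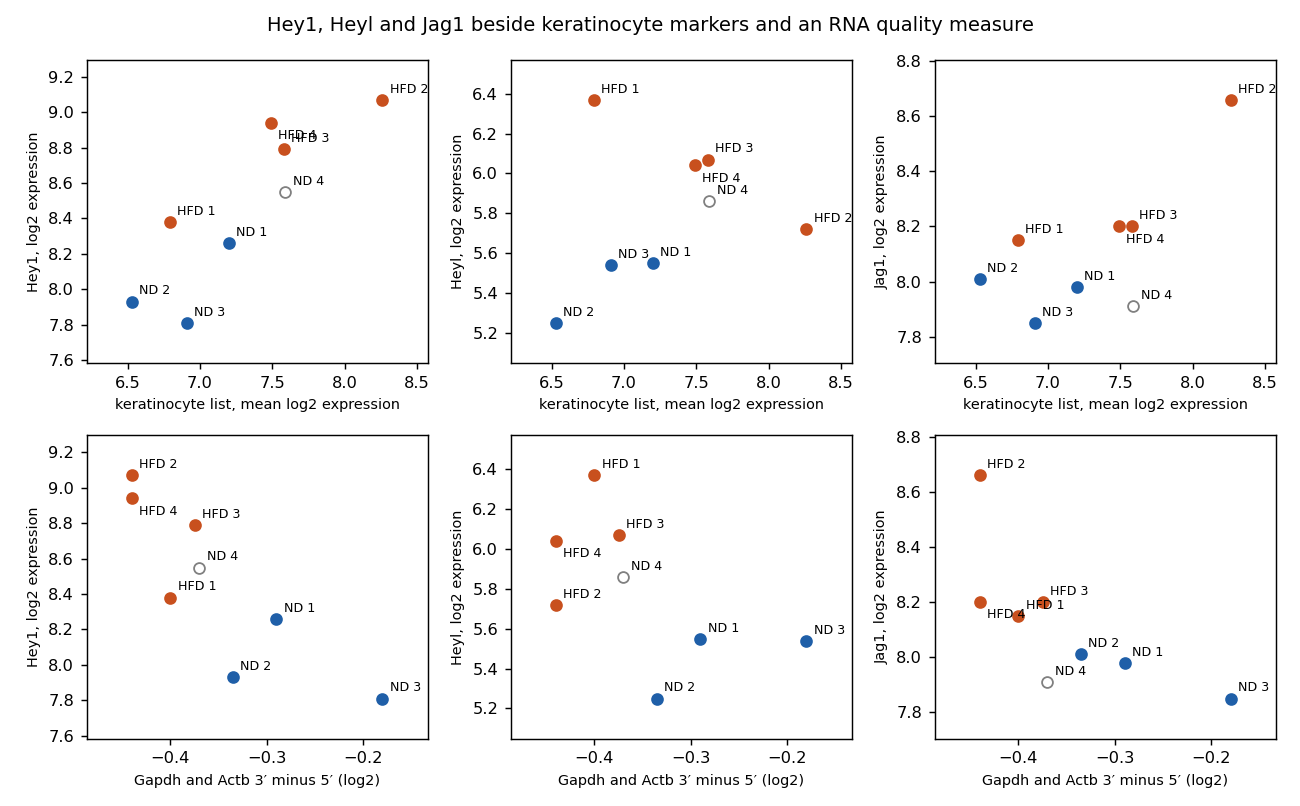
Log2 expression of Hey1, Heyl and Jag1 (y axes) in each array against the mean log2 expression of 13 keratinocyte markers (top row) and the 3′ minus 5′ difference of Gapdh and Actb (bottom row), with ND in blue, HFD in orange and ND 4 open. HFD 2, at a keratinocyte mean of 8.26, is the highest array for Hey1 (9.07) and Jag1 (8.66) and the lowest HFD array for Heyl (5.72).

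Mural cell markers, relevant because Heyl and Notch3 are typical of those cells, gave a list mean of 6.21 to 6.41 in ND and 6.4 to 6.52 in HFD over 8 measured genes, 0 of them called and 5 of them below the median probe set. On average 7 of the 8 were higher in HFD, with a median change of 0.09, and 1, the smooth muscle gene Cnn1 (0.11), did not overlap between diets. The pericyte gene Rgs5 differed by −0.0083 and the smooth muscle gene Myh11 by 0.038, and Des, of muscle and pericytes, by 0.49 (limma adjusted p = 0.168). Acta2, of smooth muscle, differed by 0.15 and Kcnj8, of pericytes, by 0.11. With the mural mean as a covariate in limma the changes were 0.51 for Hey1 (adjusted p = 0.444) and 0.82 for Heyl (adjusted p = 0.254). The endothelial list overlapped between diets (5.62 to 5.74 in ND, 5.66 to 5.81 in HFD), and the fibroblast list did too (11.33 to 11.39 and 11.3 to 11.38), with the sorted marker Cd34 at 12.08 and 12.1 and 1 of 10 called, Lum, with a change of −0.33. The immune list overlapped (6.2 to 6.29 and 6.15 to 6.28), with 1 of 10 called, Tyrobp, higher by 0.32, as did the melanocyte and Schwann list (5.95 to 6.01 and 5.92 to 6.0) and the adipocyte list (5.66 to 5.71 and 5.59 to 5.69). Pdgfra, the other marker of the sort, averaged 5.92 on the ND arrays and 6.27 on the HFD arrays, near the median probe set.

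Of the ligands, Jag1 was read by 2 probe sets. The brighter gave 7.98, 8.01 and 7.85 in ND 1 to 3 and 8.15, 8.66, 8.2 and 8.2 in HFD 1 to 4. Every HFD array was above every ND array, and HFD 2 stood far above the other 3. The change was 0.36 (SE 0.13, limma adjusted p = 0.134) and did not pass; without HFD 2 it was 0.24 (SE 0.1). The dimmer probe set gave 6.49, 6.38 and 6.21 in ND and 6.49, 6.98, 6.49 and 6.78 in HFD, a change of 0.33 (95% confidence interval 0.036 to 0.61), so both probe sets had the same sign and nearly the same size. ND 4, at 7.91 on the brighter probe set, lay with ND. With the keratinocyte mean as a covariate the change of Jag1 was 0.18 (SE 0.14).

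Among the receptors, Notch2 was bright and was lower in HFD in every array. It read 10.66, 10.54 and 10.52 in ND 1 to 3 and 10.32, 10.41, 10.38 and 10.26 in HFD 1 to 4, with ND 4 at 10.33, inside the HFD range. The change was −0.23 (SE 0.076, limma adjusted p = 0.103) and did not pass. Across the other settings tried it ranged from −0.28 to −0.17 and was negative in all of them.

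Notch1 was read by 2 probe sets that went opposite ways. The brighter gave 8.0, 7.95 and 8.12 in ND and 8.2, 8.11, 8.42 and 8.48 in HFD, where HFD 2 fell just below ND 3. Its change was 0.28 (95% confidence interval 0.036 to 0.52, limma adjusted p = 0.167). The dimmer gave 6.67, 6.94 and 7.02 in ND and 6.78, 6.61, 6.81 and 6.68 in HFD, a change of −0.16 (−0.38 to 0.07). Neither passed, and no direction can be given for the gene.

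Notch3, the mural receptor, was dim on both of its probe sets. The brighter, at 5.25, 5.33 and 5.32 in ND and 5.42, 5.44, 5.38 and 5.35 in HFD, did not overlap between diets, but by a gap of 0.02 only, with a change of 0.1 (95% confidence interval −0.019 to 0.21, limma adjusted p = 0.314). The other, at 4.56 to 4.69 in ND and 4.63 to 4.81 in HFD, lay below 4.98, the lower quartile of probe sets, and differed by 0.093.

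Rbpj, through which all Notch receptors reach the DNA, was also read by 2 probe sets of opposite sign. On the brighter the ND values were 8.97, 8.45 and 8.66 and the HFD values 8.46, 9.07, 8.82 and 9.04, which overlapped widely (change 0.15, 95% confidence interval −0.21 to 0.52, limma adjusted p = 0.652). With the keratinocyte mean as a covariate that change was −0.15 (SE 0.14). On the dimmer the ND values were 8.34, 8.14 and 8.3 and the HFD values 7.95, 8.0, 8.06 and 7.94, so that HFD lay lower without overlap (change −0.27, 95% confidence interval −0.47 to −0.077). ND 4 lay above all ND arrays on the first (9.1) and among the HFD arrays on the second (7.95).

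**Figure D3:**
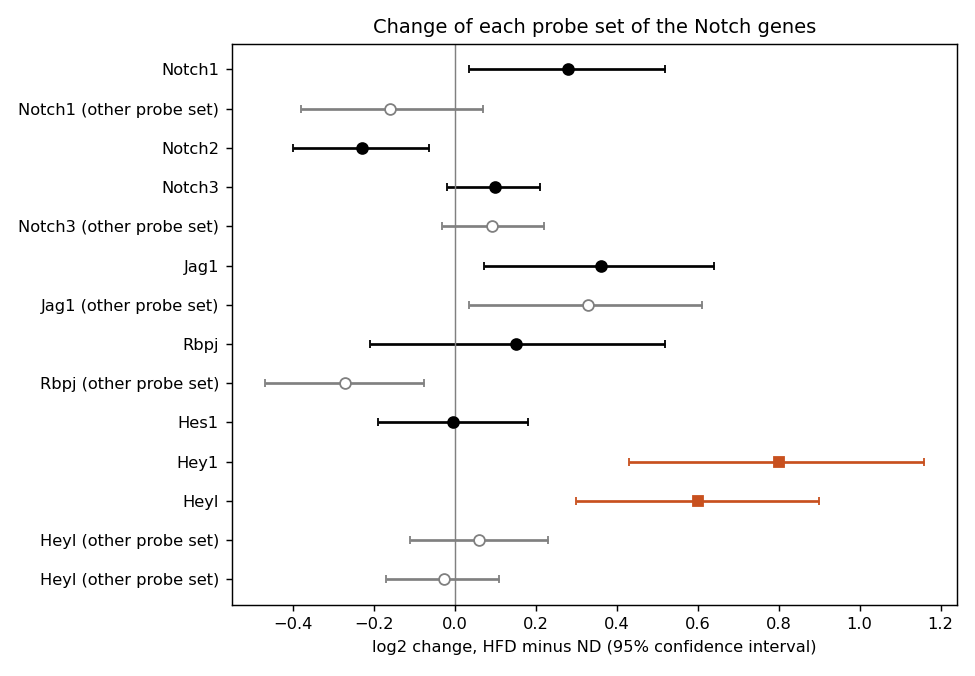
Log2 change, HFD minus ND, of each of the 14 probe sets of the Notch genes (x axis), with 95% confidence intervals from limma; filled symbols are the brightest probe set of a gene, open ones the others, and orange squares those past the adjusted threshold. Hey1 (0.8) and Heyl (0.6) pass. The other probe sets of Notch1 and Rbpj lie across 0 from their brightest one, and those of Heyl lie near 0 (−0.027 and 0.059).

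Promoter sequences of 6 of the 9 genes were taken from RefSeq (GRCm38.p6), namely Notch1, Notch2, Notch3, Jag1, Jag2 and Rbpj; Hes1, Hey1 and Heyl had none in that table. The 250 bases before each start were searched on both strands for the core of the Rbpj binding motif (TGGGAA) and for 2 motifs of Hes and Hey proteins, the E-box CACGTG and the N-box CACNAG. Shown are Jag1 and Notch2, a ligand and a receptor whose arrays did not overlap, chosen after their values were seen, and the first of 2 windows of Rbpj, the 1 gene of the 6 with an Rbpj core, with matches to any of the 3 motifs in capitals.

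Notch2 (chr3:98013288-98013537, plus strand): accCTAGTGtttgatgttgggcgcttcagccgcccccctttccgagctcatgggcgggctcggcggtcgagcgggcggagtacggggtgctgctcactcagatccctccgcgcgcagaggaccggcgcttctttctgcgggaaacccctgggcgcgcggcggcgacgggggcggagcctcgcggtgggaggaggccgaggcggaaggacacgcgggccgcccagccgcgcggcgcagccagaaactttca
Jag1 (chr2:137116521-137116770, minus strand): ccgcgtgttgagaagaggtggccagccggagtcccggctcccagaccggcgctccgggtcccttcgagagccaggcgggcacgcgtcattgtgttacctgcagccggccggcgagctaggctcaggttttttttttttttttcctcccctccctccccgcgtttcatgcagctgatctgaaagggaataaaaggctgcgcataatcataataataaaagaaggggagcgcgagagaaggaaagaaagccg
Rbpj (chr5:53590096-53590345, plus strand): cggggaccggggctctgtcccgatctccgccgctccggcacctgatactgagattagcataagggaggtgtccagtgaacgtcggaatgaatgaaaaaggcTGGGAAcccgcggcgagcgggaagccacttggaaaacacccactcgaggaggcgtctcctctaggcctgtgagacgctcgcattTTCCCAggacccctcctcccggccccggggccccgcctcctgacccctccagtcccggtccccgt

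This Rbpj window holds the core on each strand, the first 149 to 144 and the second 65 to 60 bases before the start. The second window of Rbpj overlaps it, and the 1 core there is the same site as the second of these. The core occurs in 21.6% of all 32851 RefSeq promoter windows of this length, the N-box in 36.7% and the E-box in 6.02%. Notch2 holds 1 N-box, and the Jag1 window holds none of the 3 motifs. These matches describe letters and show no binding.

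Of 69 other genes of the pathway, listed by role with earlier results of these data known, 61 were measured. In HFD 3 of them rose and 7 fell, or 16.4% called against 5.35% of all genes, and 51 did not pass; the median change was 0.02, as for all genes. The arrays of the diets did not overlap in 18 of the 61, with 7 higher and 11 lower in HFD, where 17.9% of all genes did not overlap (9.95% higher and 7.99% lower). The genes that moved lay among the receptor processing enzymes (0 higher and 2 lower of 9), the trafficking and ubiquitin regulators (2 higher and 2 lower of 13), the corepressors (0 higher and 3 lower of 10) and the targets (1 higher and 0 lower of 13). The 3 of the corepressor list include Tle5, which is known as an antagonist of the full-length family members. None of 6 other receptors and ligands, 5 glycosyltransferases and 5 coactivators was called by limma, and at an unadjusted p under 0.05 there was 1, the acetyltransferase gene Kat2a (−0.22, adjusted p = 0.147), where 22.1% of all genes had such a p. The other probe set of Kat2a differed by −0.5, with HFD below ND without overlap. The splicing factor and coactivator gene Snw1 differed by 0.12. Dll1 (0.17) and Dll3 (0.073) led the other ligands, and the fringe gene Rfng (0.24) and the glucosyltransferase gene Poglut1 (−0.19) the receptor-modifying enzymes, all by size of p and none past the threshold. As for Hey1 and Heyl, the pathway count fell to 0 in limma without ND 3, HFD 3 or HFD 4, with 13, 17 and 18 genes at an unadjusted p under 0.05, and to 2 without HFD 2. Without ND 3, HFD 3 or HFD 4, 2535, 3224 and 3004 of all 17097 genes had such a p.

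**Figure D4:**
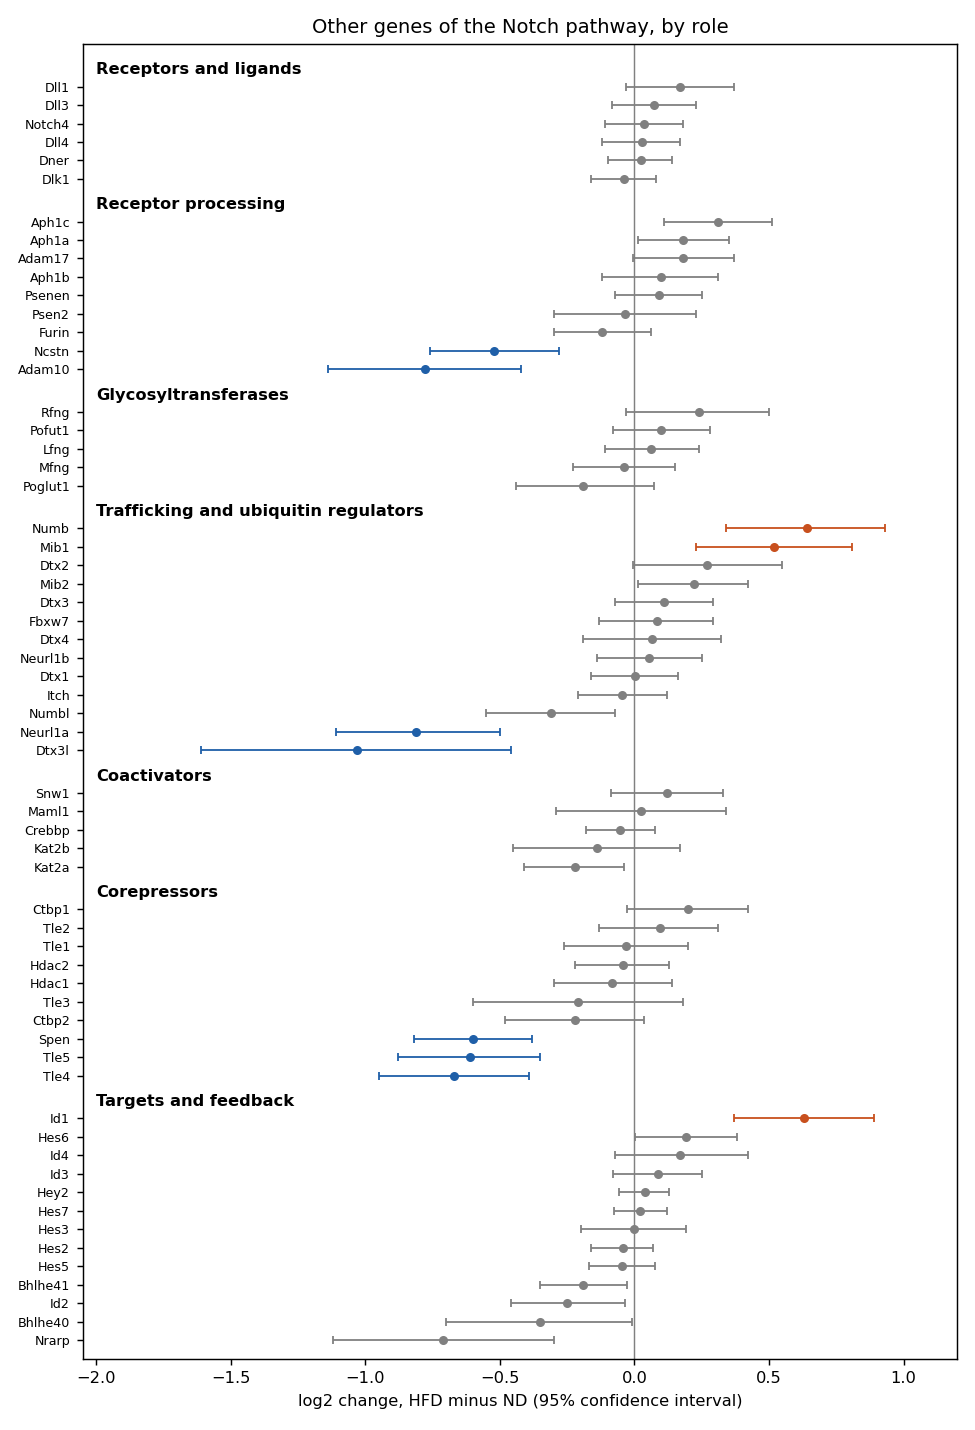
Log2 change, HFD minus ND, of the brightest probe set of 61 other Notch pathway genes (x axis) with 95% confidence intervals from limma, grouped by role; orange marks genes higher and blue genes lower past the adjusted threshold. The 3 genes of the corepressor list that passed, among them the antagonist Tle5, and the 2 processing enzymes that passed were lower, by −0.52 to −0.78.

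Adam10, which makes the first cut in the receptor, was lower on its brightest probe set and higher on both others. The brightest read 10.32, 10.49 and 10.87 in ND 1 to 3 and 10.08, 9.93, 9.54 and 9.56 in HFD 1 to 4 (change −0.78, SE 0.16, limma adjusted p = 0.0309). The others differed by 0.28 and 0.29, each with HFD above ND without overlap (unadjusted p = 0.0128 and 0.0125 in limma). Ncstn, which encodes the gamma-secretase subunit nicastrin, fell by 0.52 on the log2 scale (SE 0.11, limma adjusted p = 0.0325), from 9.79, 9.63 and 9.92 in ND to 9.49, 9.24, 9.16 and 9.15 in HFD, and its other, dimmer probe set differed by −0.064. The gamma-secretase subunit genes Aph1c (0.31, adjusted p = 0.0694) and Aph1a (0.18, adjusted p = 0.189) did not pass in limma, and on the brightest probe set of each all HFD arrays were above all ND arrays. The 2 other probe sets of Aph1a overlapped between diets, with changes of 0.11 and −0.1.

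Numb, which promotes the removal of Notch receptors from the membrane, rose on its brightest probe set and was lower on its other by as much. The brightest read 7.96, 7.75 and 7.69 in ND 1 to 3 and 8.25, 8.3, 8.43 and 8.76 in HFD 1 to 4 (change 0.64, SE 0.13, limma adjusted p = 0.0306). The other read 8.41, 8.2 and 8.75 in ND and 7.67, 7.85, 7.86 and 7.65 in HFD, a change of −0.7 (95% confidence interval −0.99 to −0.41), and neither pair of groups overlapped. Mib1, a ubiquitin ligase that ligands need in order to signal, rose by 0.52 (SE 0.13, limma adjusted p = 0.0481), while its 2 other probe sets differed by −0.18 and −0.057.

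Neurl1a, another ubiquitin ligase of the ligands, read 9.44, 9.71 and 9.45 in ND 1 to 3 and 8.88, 8.62, 8.97 and 8.43 in HFD 1 to 4. It fell by 0.81 on the log2 scale (SE 0.14, limma adjusted p = 0.0224), and 4 of its 5 dimmer probe sets also had a negative change. Dtx3l, of the Deltex family of ubiquitin ligases and best known from the DNA damage response, changed by −1.03 (SE 0.26, limma adjusted p = 0.0487) on its only probe set. Numbl, a relative of Numb (−0.31, adjusted p = 0.118), and Mib2, a relative of Mib1 (0.22, adjusted p = 0.199), did not pass in limma.

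Of the corepressors, Spen, which holds Rbpj targets silent in the absence of Notch, fell by 0.6 on the log2 scale (SE 0.1, limma adjusted p = 0.0224), from 8.88, 8.99 and 9.2 in ND to 8.46, 8.41, 8.49 and 8.33 in HFD. Its other, dimmer probe set differed by 0.1. The Groucho family genes Tle4, a corepressor that works with Hes repressors, and Tle5, a short family member known as an antagonist of the full-length ones, changed by −0.67 and −0.61 (limma adjusted p = 0.0262 and 0.028). Tle5 has no other probe set, and the 2 others of Tle4 differed by 0.079 and 0.3. The C-terminal binding protein genes Ctbp1 (0.2) and Ctbp2 (−0.22) did not pass. Ctbp2 has another, dimmer probe set that differed by −0.56, with HFD below ND without overlap (unadjusted p = 0.00241 in limma).

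In the target and feedback list Id1, an inhibitor of helix-loop-helix factors better known as a target of BMP, rose by 0.63 (SE 0.12, limma adjusted p = 0.0264). Nrarp, a feedback inhibitor that Notch itself switches on, read 9.15, 8.78 and 9.49 in ND 1 to 3 and 8.5, 8.78, 8.33 and 8.11 in HFD 1 to 4. It differed by −0.71 (95% confidence interval −1.12 to −0.3, limma adjusted p = 0.0531), the opposite sign from Hey1 and Heyl, and its other probe set differed by −0.54. Id2, a relative of Id1, differed by −0.25 (limma adjusted p = 0.159), and its 2 dimmer probe sets by −0.68 and −0.082. On the first of these HFD lay below ND without overlap (unadjusted p = 8.37e-05 in limma). Id4, another relative, differed by 0.17 (limma adjusted p = 0.413) and did not pass. Its 2 dimmer probe sets differed by 0.78 and 0.24, the first with HFD above ND without overlap (unadjusted p = 5.84e-06 in limma). The other Hes and Hey genes, Hes2, Hes3, Hes5, Hes6, Hes7 and Hey2, did not pass, with changes of −0.046 to 0.19.

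Disagreement between probe sets was common in this list. Of the 10 pathway genes called, 7 had other probe sets, and in 5 of these, Adam10, Numb, Mib1, Spen and Tle4, every other probe set had the opposite sign. Over all called genes with other probe sets the same held for 117 of 530, or 22.1%. For 9 of the 10 pathway genes called, the excluded ND 4 lay nearer the HFD mean than the ND mean, the exception being Id1, and this held for 4 of the 8 measured Notch genes (Notch2, Rbpj, Hey1 and Heyl).

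**Figure D5:**
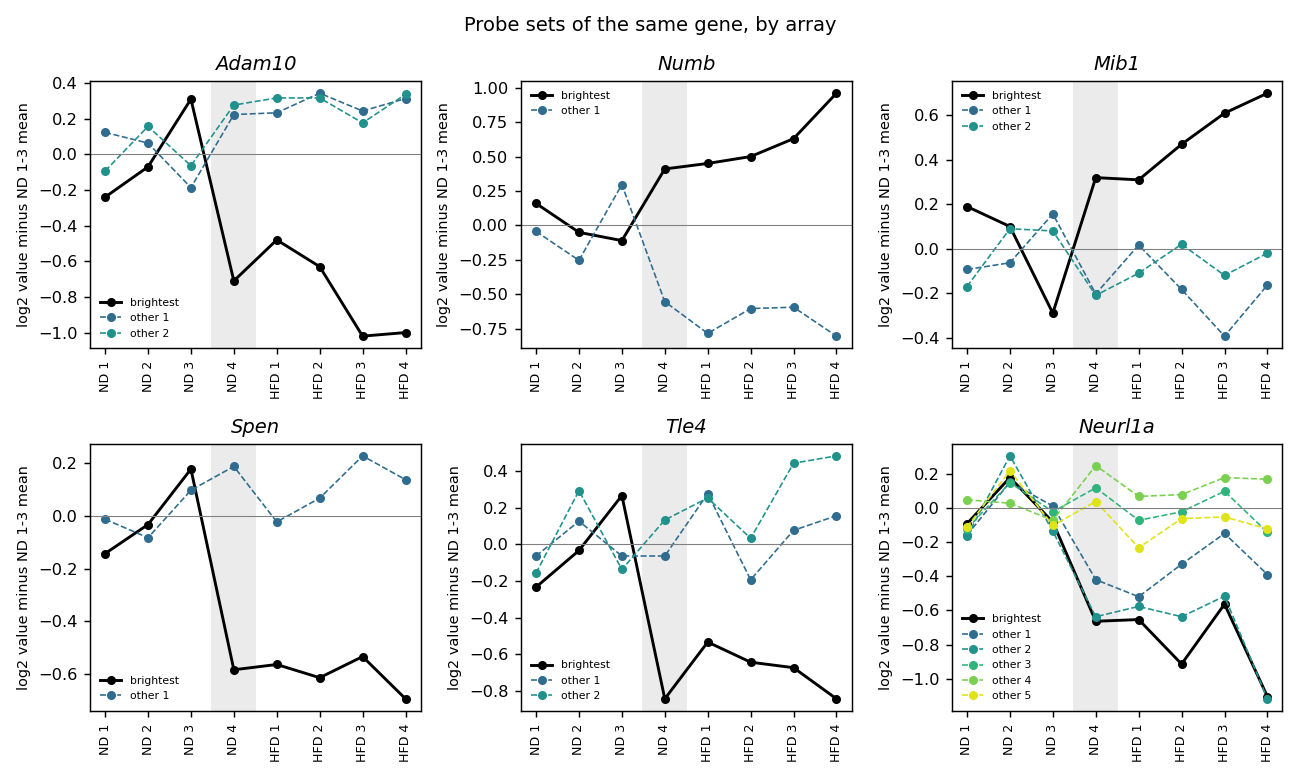
Log2 value minus the mean of ND 1 to 3 (y axis) of every probe set of 6 called pathway genes in each array (x axis), with the brightest in solid black, the others dashed and ND 4 shaded. The brightest and the other probe sets of Adam10 and Numb part in opposite directions, and ND 4 lies nearer the HFD mean on the brightest of both, within the HFD range for Adam10 (9.85) and between the diets for Numb (8.21).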

How the data were processed

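The deposited values are log2 intensities of 45141 probe sets on 8 arrays, which the authors made with RMA and the affy package, per the submitters' processing notes; versions and settings are not given in the sources used here. Values run from 3.56 to 13.5 and were used without further scaling, since the quartiles of the arrays lie within 0.04. No detection calls were used, and the number of arrays limits the precision. Names came from the platform's annotation table (28898 with 1 symbol, 551 with several, 15588 unnamed, 104 controls), checked by Entrez identifier against GRCm38.p6. Each gene took its brightest probe set over the 7 arrays compared, which gave 17097 genes. HFD 1 to 4 were compared with ND 1 to 3 in limma 3.58.1 (R 4.3.3; lmFit, eBayes with trend), with the Benjamini-Hochberg adjustment taken over all of them. Other probe sets were fitted together over all 28898, and their p-values are unadjusted. Nothing says more than that the arrays are separate specimens, so p-values measure the spread between specimens.

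The genes, lists and settings were chosen with earlier results of these data known. Named were all measured members, each called pathway gene, the 2 others of smallest p per role, cell type markers and the 3 genes most like Hes1. The other Hes and Hey genes, and Id4 for a dimmer probe set, were added to these. The fit was tested on simulated data of 17097 genes with 200 changed, for 3 against 4 arrays. It recovered 94.7% of changes of 1 log2 and 65.7% of changes of 0.5, with 4.54% false calls. The simulated noise was drawn independently for each gene, without effects shared by an array, so these rates may not hold for the real arrays. Alternatives were other arrays, the specimen number as a block, dim genes left out, quantile normalization, median centring, other variance models, array weights, the mean of probe sets, and 3 covariates. Figures were drawn with matplotlib 3.10.9.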

Additional observations from a re-analysis of the deposited data

Results flagged for a closer look

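Among 32 named genes checked for an HFD array that stands far from the other 3, 3 were marked, where chance marks about 1 group in 20. Jag1 was marked for HFD 2, at 8.66 against 8.15 to 8.2 in the other HFD arrays, and HFD 2 also had the highest keratinocyte marker mean (8.26). Its part in the Jag1 value was not tested beyond the covariate fit. The corepressor gene Ctbp2 was marked for HFD 2 as well, at 7.93 on the low side, against 8.23 to 8.26 in the other 3. The Groucho family gene Tle5 was marked for HFD 1, at 10.29 on the high side, against 9.96 to 10.01 in the others.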

How the results depend on the processing

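The changes of Hey1 and Heyl kept their sign in every setting that used their brightest probe set or the mean of their probe sets (0.48 to 0.93 and 0.21 to 0.91, the 0.21 being the mean of the 3 probe sets of Heyl), and Hey1 passed in 9 of 19 and Heyl in 6 of 18 settings. Jag1 (0.11 to 0.41) and Notch3 (0.07 to 0.11) stayed positive and Notch2 negative. The causes of the shifts below were not tested.

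The counts of all genes, of Notch genes and of pathway genes called (914, 2 and 10) were 6, 0 and 0 in limma with all 8 arrays (at an unadjusted p under 0.05, 2795, 4 and 21), and 6 to 1072, 0 to 2 and 0 to 10 with 1 array left out. In limma the count of Notch genes was 0 without ND 2, ND 3, HFD 3 or HFD 4 (4 each at an unadjusted p under 0.05), and that of pathway genes was 0 without ND 3, HFD 3 or HFD 4 (13, 17 and 18). Of all 17097 genes, 3652, 2535, 3224 and 3004 had such a p without ND 2, ND 3, HFD 3 and HFD 4. The counts of all, Notch and pathway genes were 400, 1 and 2 with the mean of probe sets. Without genes dimmer than the median gene, which leaves out Heyl and Notch3, they were 1387, 1 and 12 (2870, 4 and 19 unadjusted). There a larger share of all genes was called than the 5.35% of the main fit, as more were called among fewer. Without a trend 1 Notch gene was called. With the 3′ minus 5′ covariate they were 0, 0 and 0 (604, 1 and 1 unadjusted), with the keratinocyte covariate 18, 0 and 0 (2783, 3 and 17), and with the mural covariate 0, 0 and 0 (1538, 4 and 9).

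With the specimen number as a replicate block the counts were 1, 0 and 0 (2517, 3 and 13 unadjusted). Same-numbered arrays did not deviate together (r of −0.182, −0.291 and −0.053), and none of ND 1, 2 and 3 correlated best with its own number. With so few pairs these values cannot settle whether the number pairs the mice.

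The sign turned for Hes1, whose change is near 0, without ND 1, HFD 1 or HFD 2 (−0.055 to 0.05 over all arrays left out in turn), with quantile normalization (0.015), array weights (0.0068), the 3′ minus 5′ covariate (0.06) and the mural covariate (0.0035). For Rbpj it turned with the mean of probe sets (−0.059), the keratinocyte (−0.15) and mural (−0.0013) covariates and on the other probe set (−0.27), and the other probe sets of Notch1 (−0.16) and Heyl (−0.027) also turned.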

Other observations

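The genes most like Hes1 over the 7 arrays compared were Xrcc3 (Pearson's r = 0.968), Tdrd3 (0.966) and Rab11fip1 (0.966), among 8542 genes brighter than the median gene, of which 11 had an r over 0.9. Like Hes1 they differed little between diets (0.07, −0.0042 and 0.02), which follows largely from their choice by r to Hes1 over the same arrays. These values describe 7 arrays and were not tested.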
